A study of Mus musculus with 5 samples.

Results

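The auxiliary subunits of voltage-gated calcium channels were followed in RNA pulled down with tagged ribosomes from dentate gyrus and cerebral cortex of adult mice. The set holds 7 genes of the 32531 listed, 3 that encode α2δ subunits (Cacna2d1, Cacna2d2 and Cacna2d3) and 4 that encode β subunits (Cacnb1, Cacnb2, Cacnb3 and Cacnb4). They were chosen by name, and all 7 passed the filter on low counts. There were 3 dentate gyrus libraries and 2 cerebral cortex libraries. All came from mice that carry Rbp4-Cre (KL100), a driver line for Cre recombinase, together with Rosa26-LSL-EGFP/Rpl10a, an allele that makes an EGFP-tagged ribosomal protein once Cre has removed its stop cassette. Every library is an anti-EGFP immunopurified fraction of untreated tissue (translating ribosome affinity purification, TRAP), and no unpurified input was analysed here. The age beyond adult, and whether libraries came from separate animals, are not given in the labels, so a p-value here covers the variation among these libraries only, and that variation may be technical. The driver is widely used to mark pyramidal neurons of cortical layer 5, and the share of RNA from untagged cells was not measured.

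High-voltage-activated calcium channels consist of a pore subunit that is joined by a β subunit inside the cell and by an α2δ subunit on the outside. The β subunit is a cytosolic scaffold that binds the linker after the first repeat of the pore protein, brings the channel to the membrane and tunes its gating and inactivation. The α2δ subunit is an extracellular, membrane-anchored glycoprotein with a von Willebrand factor A domain, which promotes channel trafficking, particularly to presynaptic terminals. Low-voltage-activated, T-type channels can work without either partner. These subunits can influence how much calcium enters at terminals and dendrites during firing, and calcium entry was not measured here.

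The libraries held between 22600963 and 36837908 gene counts. All 6 dentate granule cell markers examined, among them the homeobox gene Prox1, were higher in dentate gyrus, and all 6 cortical projection neuron markers, among them the layer 5 gene Fezf2, were higher in cortex. Among the dentate gyrus libraries, replicate 2 had the highest level of 5 of these 6 cortical markers. For replicates 1, 2 and 3, Fezf2 was at 1.82, 60.4 and 17.5 CPM (counts per 1000000 gene counts, TMM-scaled), Deptor at 2.42, 14.1 and 2.87 CPM, and Etv1 at 44.8, 97.0 and 57.1 CPM. Without dentate gyrus replicate 2, 2 members were called higher and 2 lower in dentate gyrus. Cortex replicate 1 and dentate gyrus replicate 2 stood apart from their groups in a few genes. The 3 Purkinje cell markers examined, Car8, Pcp2 and Ppp1r17, summed to 0.267 to 0.825 CPM in the dentate gyrus libraries, and to 466 and 1.55 CPM in cortex replicates 1 and 2. The fibroblast gene Dcn was at 114.6 CPM in dentate gyrus replicate 2, and at 1.71 and 10.6 CPM in dentate gyrus replicates 1 and 3. In cortex replicates 1 and 2 it was at 35.2 and 25.7 CPM. The other vascular and fibroblast-like markers examined were Flt1, Pecam1 and Cldn5. Among the dentate gyrus libraries, replicate 2 had the highest level of Flt1 and the lowest of Pecam1. Cldn5 was at most 0.0445 CPM in any library. In bulk RNA such as this, fewer cells of a type and less RNA per cell cannot be told apart.

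The promoter sequences of the members with the largest called change in each direction are shown, Cacna2d2 toward cortex and Cacnb2 toward dentate gyrus. They are RefSeq windows on GRCm38.p6, running from 250 bases before to 50 bases after a transcript start, and all 7 members matched the table, with 12 windows in all. Capitals mark an E-box (CAGNTG on either strand, which also reads CANCTG), bound by basic helix-loop-helix factors, or a GC box (GGGCGG on either strand), bound by Sp factors. Cacnb2 has 2 of these windows, and counts per gene do not separate their starts. Starts in other annotations were not examined. The first line is chr9:107399630-107399929, the second chr2:14604056-14604355 and the third chr2:14823842-14824141, all on the plus strand.
Cacna2d2: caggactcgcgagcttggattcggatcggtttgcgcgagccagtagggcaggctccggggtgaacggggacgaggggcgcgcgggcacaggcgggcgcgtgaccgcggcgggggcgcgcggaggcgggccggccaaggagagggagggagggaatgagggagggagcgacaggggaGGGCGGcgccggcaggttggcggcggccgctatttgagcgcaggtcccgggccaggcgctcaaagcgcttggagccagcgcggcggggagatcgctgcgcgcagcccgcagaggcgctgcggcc
Cacnb2 upstream start: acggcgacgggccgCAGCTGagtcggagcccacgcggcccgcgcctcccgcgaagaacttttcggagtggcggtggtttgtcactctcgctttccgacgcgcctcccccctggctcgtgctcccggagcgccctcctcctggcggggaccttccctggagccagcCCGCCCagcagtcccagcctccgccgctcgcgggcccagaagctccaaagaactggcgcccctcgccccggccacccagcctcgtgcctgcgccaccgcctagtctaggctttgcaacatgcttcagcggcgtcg
Cacnb2 downstream start: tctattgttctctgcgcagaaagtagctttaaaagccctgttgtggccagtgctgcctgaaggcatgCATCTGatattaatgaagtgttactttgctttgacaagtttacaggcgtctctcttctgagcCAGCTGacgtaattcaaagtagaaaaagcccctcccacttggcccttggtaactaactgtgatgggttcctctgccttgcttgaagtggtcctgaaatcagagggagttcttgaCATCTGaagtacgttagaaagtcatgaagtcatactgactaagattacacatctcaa

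The Cacna2d2 window had a GC content of 75.7%, 1 GC box and 0 E-boxes. The upstream Cacnb2 window had a GC content of 71.7%, 1 GC box and 1 E-box, whereas the downstream window had a GC content of 44.0%, 0 GC boxes and 3 E-boxes. Of all 32851 windows in the table, 51.4% held an E-box and 35.7% a GC box, and the median GC content was 52.7%. A cyclic AMP response element (TGACGTCA) and a MEF2 box, both searched on both strands, were each found in 0 of the 12 member windows, against 1.79% and 3.69% of all windows. These matches are a description of letters, with no measured binding.

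The question of the comparison was which subunit transcripts differ between dentate gyrus and cortex. Of the 7 members, 2 were higher in dentate gyrus (Cacna2d1 and Cacnb2), 3 were lower there (Cacna2d2, Cacna2d3 and Cacnb4), and 2 did not pass (Cacnb1 and Cacnb3). Over all 14136 tested genes, 21.3% were called, 10.5% as higher in dentate gyrus and 10.8% as higher in cortex. All 3 dentate gyrus libraries were above both cortex libraries for 2 members and below both for 5, as for 25.4% and 24.8% of all tested genes (50.1% in either direction). Without both libraries that stood apart, 0 members were called higher and 1 lower (Cacnb4) among the 3 libraries left, where 771 genes were called higher in dentate gyrus and 807 lower. The median log2 fold change of the members was -0.50, beside 0.02 over all tested genes, and their median absolute change was 0.78, beside 0.66.

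**Figure D1:**
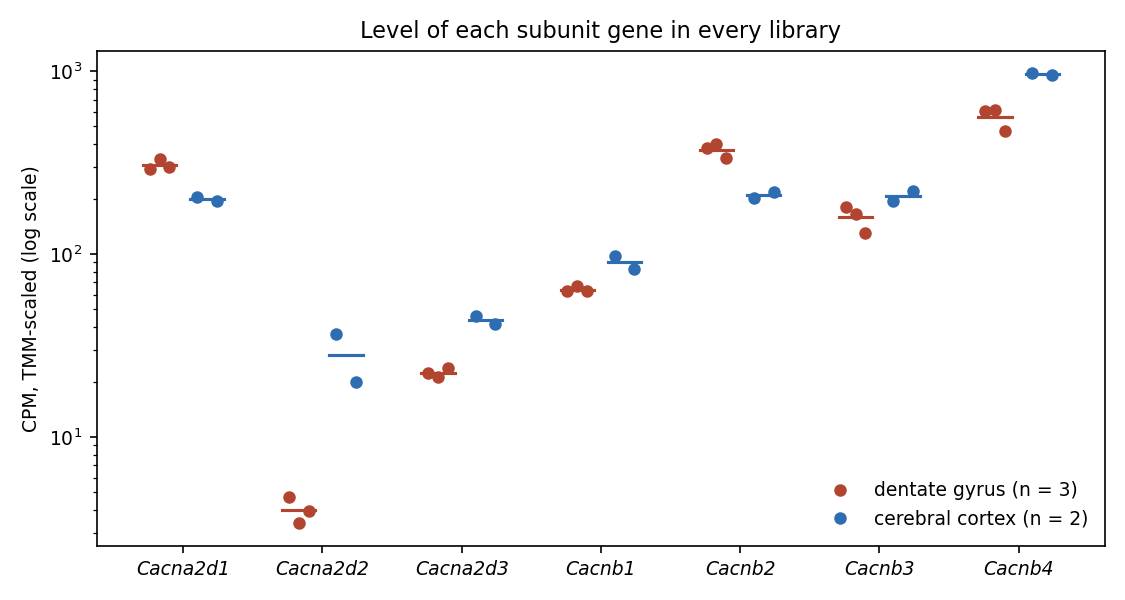
TMM-scaled CPM on a log axis for the 7 subunit genes, with 1 point per library (3 dentate gyrus, 2 cerebral cortex) and a bar at each mean. Cacna2d1 and Cacnb2 lie higher in all dentate gyrus libraries, the other 5 genes lie lower there, and Cacna2d2 shows the widest gap, with means of 4.01 and 28.3 CPM in dentate gyrus and cortex.

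Among the α2δ genes, Cacna2d1 moved opposite to Cacna2d2 and Cacna2d3. Cacna2d1 (chromosome 5, 15934691 to 16374511, plus strand) encodes the subunit that is the main target of gabapentin and pregabalin. It was at 292.5, 330.7 and 298.2 CPM in dentate gyrus replicates 1, 2 and 3, and at 205.4 and 195.4 CPM in cortex replicates 1 and 2. Every dentate gyrus library was above both cortex libraries, and the replicates of each tissue lay close together. The fitted log2 fold change was 0.61 (SE 0.13), or 1.53-fold, with an adjusted p of 0.00797 by edgeR. The adjusted p was 0.0708 without cortex replicate 2.

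Cacna2d2 (chromosome 9, 107399612 to 107529343, plus strand) encodes a second gabapentin-binding α2δ subunit, which is abundant in cerebellar Purkinje cells and is disrupted in ducky mice, which have ataxia and absence seizures. It was at 4.71, 3.38 and 3.93 CPM in dentate gyrus replicates 1, 2 and 3, and at 36.5 and 20.0 CPM in cortex replicates 1 and 2. Its level was low in every dentate gyrus library, and the cortex libraries differed from each other by 1.82-fold. The log2 fold change was -2.82 (SE 0.41), a level 7.06-fold higher in cortex (adjusted p 0.000974 by edgeR). Of all tested genes, 8.57% had a larger absolute change than Cacna2d2. It was also past the threshold when the change had to exceed 2-fold, with an adjusted p of 0.00779.

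The cortex library with more Cacna2d2 was also the library with the Purkinje cell markers. Car8, a carbonic anhydrase-related gene abundant in Purkinje cells, was at 0.248, 0.134 and 0.589 CPM in dentate gyrus replicates 1, 2 and 3, and at 410 and 1.43 CPM in cortex replicates 1 and 2. Ppp1r17, a phosphatase inhibitor gene, had 0 counts in all 3 dentate gyrus libraries and in cortex replicate 2, and was at 35.6 CPM in cortex replicate 1. Without cortex replicate 1, Cacna2d2 was still lower in dentate gyrus, with a log2 fold change of -2.32 and an adjusted p of 0.0264. Without both cortex replicate 1 and dentate gyrus replicate 2 it was at -2.21, with an adjusted p of 0.0580.

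Markers of GABAergic interneurons, in which Cacna2d2 is also known, moved in part with it. Of 8 such markers, 5 were lower in dentate gyrus, 1 was higher there and 2 did not pass. Their summed level was 186 to 222 CPM in dentate gyrus and 893 to 906 CPM in cortex. Most of the cortex sum was Sst, the somatostatin gene, at 698 and 638 CPM in cortex replicates 1 and 2. In dentate gyrus replicates 1, 2 and 3 Sst was at 113, 81.0 and 72.65 CPM. Without cortex replicate 2, 3 of the 8 markers were lower in dentate gyrus, and the count of higher markers was 0 without dentate gyrus replicate 1, dentate gyrus replicate 3 or cortex replicate 1. Pvalb, the parvalbumin gene of fast-spiking interneurons, was at 0.0275, 0.267 and 0.432 CPM in dentate gyrus replicates 1, 2 and 3, and at 27.5 and 11.6 CPM in cortex replicates 1 and 2. Its higher cortex level was in replicate 1, the library with the Purkinje cell markers, and which cells the Pvalb RNA came from was not tested. Gad1, a glutamate decarboxylase gene, was the marker that was higher in dentate gyrus, with 71.5, 57.3 and 64.98 CPM there and 26.5 and 40.8 CPM in cortex replicates 1 and 2. The part of interneuron RNA in the Cacna2d2 difference was not tested.

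**Figure D2:**
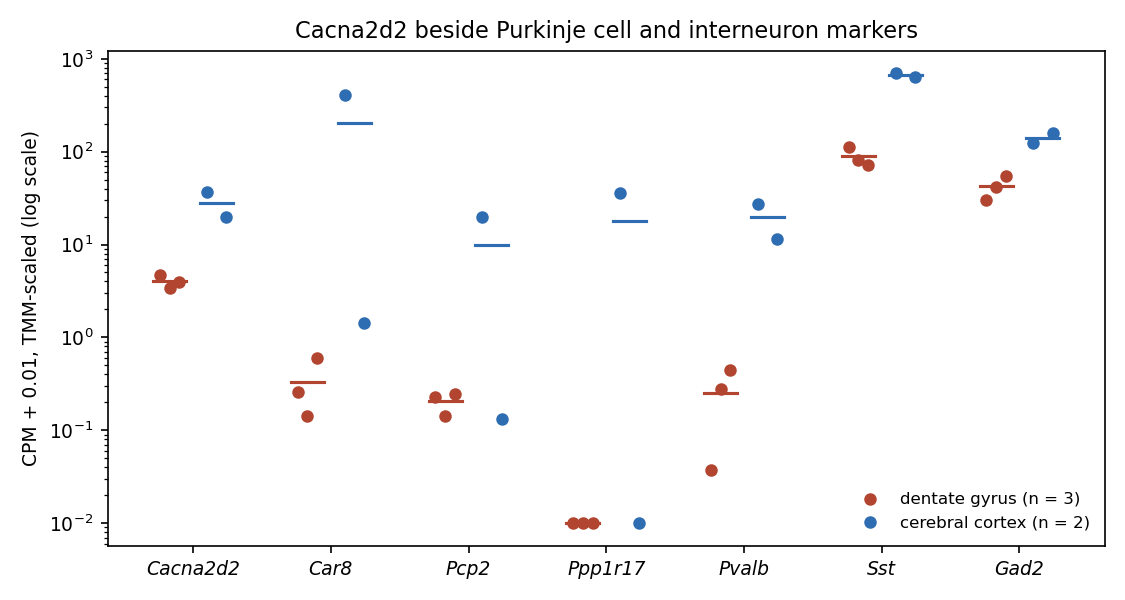
TMM-scaled CPM plus 0.01, on a log axis, for Cacna2d2, 3 Purkinje cell markers (Car8, Pcp2, Ppp1r17) and 3 of the 8 interneuron markers examined (Pvalb, Sst, Gad2), with 1 point per library and a bar at each mean. The interneuron markers drawn were all called higher in cortex. Gad1, which was higher in dentate gyrus, and the 2 markers that did not pass are not drawn. Cortex replicate 1 is far above all other libraries in the Purkinje cell markers, while Cacna2d2 is at 36.5 and 20.0 CPM in the cortex libraries and under 5 CPM in each dentate gyrus library.

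Cacna2d3 (chromosome 14, 28904943 to 29721864, minus strand) encodes an α2δ subunit that does not bind gabapentin and is known for a role in heat pain and in presynaptic channel function. It was at 22.5, 21.3 and 23.8 CPM in dentate gyrus replicates 1, 2 and 3, and at 46.0 and 41.2 CPM in cortex replicates 1 and 2. The log2 fold change was -0.96 (SE 0.25), 1.95-fold higher in cortex (adjusted p 0.0204 by edgeR). The direction was the same under every alternative, but the call was not stable. Its adjusted p was 0.130 and 0.0648 without cortex replicates 1 and 2, 0.0510 without dentate gyrus replicate 2, and 0.0694 with the replicate number as a block.

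Among the β genes, Cacnb2 and Cacnb4 moved in opposite directions. Cacnb2 (chromosome 2, 14603088 to 14987908, plus strand) encodes the main β subunit of the heart, which slows inactivation in some splice forms and is also made in brain. It was at 380, 399 and 336 CPM in dentate gyrus replicates 1, 2 and 3, and at 203 and 218 CPM in cortex replicates 1 and 2. All dentate gyrus libraries were well above the cortex libraries. The log2 fold change was 0.81 (SE 0.13), or 1.76-fold, with an adjusted p of 0.00183 by edgeR.

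Cacnb4 (chromosome 2, 52428320 to 52676831, minus strand) encodes the subunit that is lost in lethargic mice, which have ataxia and absence seizures. It had the most reads of the 7 genes in both tissues. It was at 607, 612 and 473 CPM in dentate gyrus replicates 1, 2 and 3, and at 975 and 950 CPM in cortex replicates 1 and 2. The log2 fold change was -0.78 (SE 0.13), 1.71-fold higher in cortex (adjusted p 0.00213 by edgeR). Exons of Cacnb4 overlap 1433 bases of A430018G15Rik on the other strand, and without a stated strand setting reads of the pair cannot be told apart. Shorter overlaps with transcripts of the other strand concern exons of Cacnb2 (618, 239 and 111 bases), Cacna2d2 (82 bases) and Cacnb1 (80 bases).

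Cacnb1 and Cacnb3 were lower in each dentate gyrus library than in either cortex library but did not pass the test. Cacnb1 (chromosome 11, 98001508 to 98023034, minus strand) encodes the β subunit of skeletal muscle, with a form that is also made in brain. It was at 62.9, 66.5 and 62.5 CPM in dentate gyrus replicates 1, 2 and 3, and at 97.2 and 83.2 CPM in cortex replicates 1 and 2. Its log2 fold change was -0.50 (SE 0.18), with an adjusted p of 0.0795 by edgeR and an adjusted p of 0.0152 by DESeq2. Cacnb3 (chromosome 15, 98630840 to 98644529, plus strand) encodes a β subunit with a wide distribution in brain and smooth muscle. It was at 180, 166 and 131 CPM in dentate gyrus replicates 1, 2 and 3, and at 194 and 220 CPM in cortex replicates 1 and 2. The tissues came close to each other here, with 180 CPM in dentate gyrus replicate 1 against 194 CPM in cortex replicate 1, and the log2 fold change was -0.39 (SE 0.17, adjusted p 0.137 by edgeR).

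Levels were compared between genes after division by exon length, in CPM per kb. In dentate gyrus the order was Cacnb4 (62.9 ± 8.81), Cacnb3 (39.6 ± 6.30), Cacnb2 (28.1 ± 2.44), Cacna2d1 (24.7 ± 1.66), Cacnb1 (14.1 ± 0.492), Cacna2d3 (2.58 ± 0.141) and Cacna2d2 (0.504 ± 0.0839 CPM per kb, SD, n = 3). In cortex it was Cacnb4 (107 ± 1.97), Cacnb3 (51.7 ± 4.62), Cacnb1 (19.9 ± 2.20), Cacna2d1 (16.1 ± 0.571), Cacnb2 (15.9 ± 0.813), Cacna2d3 (5.01 ± 0.388) and Cacna2d2 (3.56 ± 1.47 CPM per kb, SD, n = 2). Neighbours whose ranges over libraries overlapped were Cacna2d1 and Cacnb2 in cortex, and Cacnb2 and Cacna2d1 in dentate gyrus. The order of the β genes depends on the length used. With the longest annotated transcript, Cacnb2 was at 73.9, Cacnb4 at 68.6 and Cacnb3 at 58.1 CPM per kb in dentate gyrus, because the union of Cacnb2 exons is 13228 bases and its longest transcript 5030 bases. Cacna2d3 and Cacna2d2 came last in both tissues with either length.

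The make-up of each family, taken over its member genes, differed between tissues. Cacna2d4, a further α2δ gene, was not in the α2δ sum. It was at 0, 0.356 and 4.52 CPM in dentate gyrus replicates 1, 2 and 3, and at 0.626 and 2.61 CPM in cortex replicates 1 and 2. Cacna2d1 held 88.1%, 90.3% and 88.2% of the summed α2δ level per length in dentate gyrus replicates 1, 2 and 3, and 62.6% and 68.5% in cortex replicates 1 and 2. Cacna2d2 held 1.44% to 2.22% of it in dentate gyrus, and 17.4% and 10.96% in cortex replicates 1 and 2. The share of Cacna2d3 was 8.29% to 10.01% in dentate gyrus and 20.0% and 20.6% in cortex. Among the member α2δ genes, the dentate gyrus pool was thus nearly all Cacna2d1, and its share there was above that in cortex in every library.

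Within the β family, Cacnb2 held 18.5%, 19.5% and 20.4% in dentate gyrus replicates 1, 2 and 3, and 7.91% and 8.42% in cortex replicates 1 and 2. Cacnb4 held 43.6%, 44.2% and 42.3% in dentate gyrus, and 56.1% and 54.1% in cortex. Cacnb1 held 9.84% ± 1.11 in dentate gyrus (SD, n = 3) and 10.2% ± 1.19 in cortex (SD, n = 2), and Cacnb3 held 27.3% ± 1.43 and 26.5% ± 2.20 in dentate gyrus and cortex. The shares of Cacnb2 and Cacnb4 did not overlap between tissues, and those of Cacnb1 and Cacnb3 did. An exact permutation test over the 5 libraries, with a two-sided p that doubles the one-sided value, gave p = 0.2 for each of the shares of Cacnb2, Cacnb4 and the 3 α2δ genes. That is the smallest p this test can give with its 10 splits, so it could not pass 0.05 here. With the longest transcript as length, the Cacnb2 share was 33.8% in dentate gyrus and 16.0% in cortex.

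**Figure D3:**
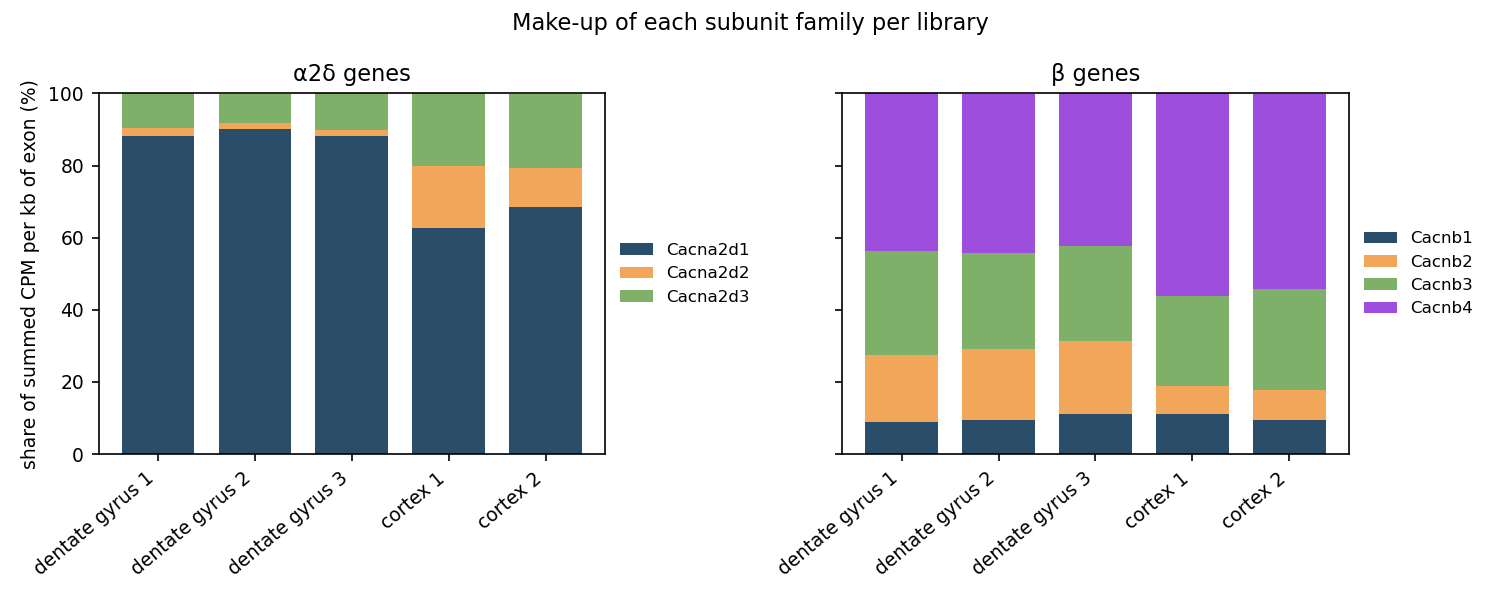
Stacked bars give, for each library, the percent of the summed CPM per kb of exon held by each member α2δ gene (left) and each β gene (right). Cacna2d4 is not in the α2δ sum. Cacna2d1 fills 88.1% to 90.3% of the α2δ bars in dentate gyrus and 62.6% to 68.5% in cortex, and the Cacnb2 band is wider and the Cacnb4 band narrower in the dentate gyrus bars.

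The ratio of Cacnb2 to Cacnb4 per length was 0.424, 0.442 and 0.482 in dentate gyrus replicates 1, 2 and 3, and 0.141 and 0.156 in cortex replicates 1 and 2. The size of this ratio depends on the length used. With the longest transcript as length, mean Cacnb2 and Cacnb4 levels were 73.9 and 68.6 CPM per kb in dentate gyrus. In cortex they were 41.8 and 117 CPM per kb, so Cacnb2 was again higher relative to Cacnb4 in dentate gyrus. The summed β level was 145 ± 17.5 CPM per kb in dentate gyrus (SD, n = 3) and 195 ± 1.26 CPM per kb in cortex (SD, n = 2). The summed α2δ level, without Cacna2d4, was 26.7, 29.5 and 27.2 CPM per kb in dentate gyrus and 26.4 and 23.0 CPM per kb in cortex. The sum thus differed by little although its members moved apart. The summed level of the 7 high-voltage-activated pore genes was 74.6 ± 4.43 CPM per kb in dentate gyrus (SD, n = 3) and 50.8 ± 0.79 CPM per kb in cortex (SD, n = 2). Set against that pore sum, the β sum was 2.17, 2.13 and 1.56 times as large in dentate gyrus replicates 1, 2 and 3, and 3.86 and 3.81 times as large in cortex replicates 1 and 2. The α2δ sum was 0.373, 0.407 and 0.342 of the pore sum in dentate gyrus and 0.526 and 0.448 in cortex. Both ratios were lower in every dentate gyrus library, and these are RNA levels, not protein ratios. The pore gene Cacna1e was the largest part of the pore sum, with means of 41.57 CPM per kb in dentate gyrus and 17.55 in cortex. Ratios without Cacna1e were not computed, so a lower ratio to the other pore genes is not shown.

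**Figure D4:**
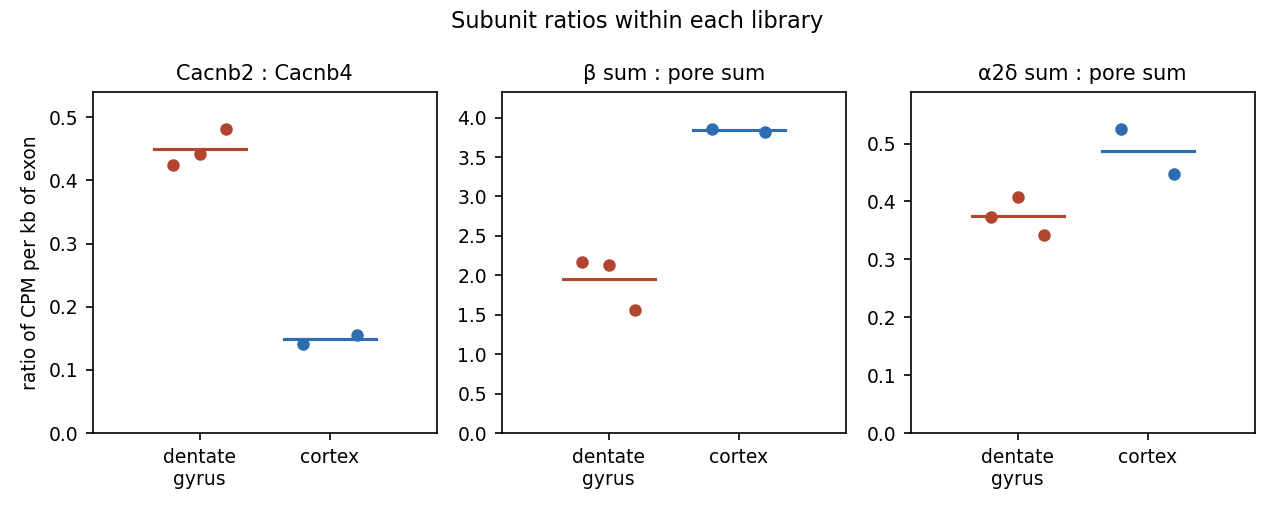
Ratios of CPM per kb within each library, for Cacnb2 to Cacnb4, for the β sum to the sum of the high-voltage-activated pore genes, and for the α2δ sum to that pore sum, with 1 point per library and a bar at each mean. Cacnb2 to Cacnb4 is at 0.424 to 0.482 in dentate gyrus and at 0.141 to 0.156 in cortex. The size of this ratio depends on the gene length used. Both ratios to the pore sum lie lower in dentate gyrus. Cacna1e is the largest part of that pore sum, and ratios to the other pore genes alone were not computed.

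The pore genes that these subunits join also split between tissues. Of 7 high-voltage-activated pore genes, 5 were tested, 2 were higher in dentate gyrus and 1 was lower there, with a median log2 fold change of 0.34. Cacna1e, the R-type pore, was at 1007, 1039 and 1100 CPM in dentate gyrus replicates 1, 2 and 3, and at 472 and 414 CPM in cortex replicates 1 and 2 (log2 1.24, SE 0.11, adjusted p 5.0e-05). Cacna1c, an L-type pore, was at 242 ± 11.9 CPM in dentate gyrus (SD, n = 3) and 114 ± 12.6 CPM in cortex (SD, n = 2), a log2 fold change of 1.08 (SE 0.15). Cacna1b, the N-type pore, was at 101 ± 14.0 CPM in dentate gyrus (SD, n = 3) and 148 ± 11.6 CPM in cortex (SD, n = 2). Its adjusted p of 0.0478 became 0.0572 to 0.210 when any 1 library was left out. Cacna1a, the P/Q-type pore, did not pass, with 84.5, 64.8 and 93.9 CPM in dentate gyrus replicates 1, 2 and 3 and 108 and 111 CPM in cortex replicates 1 and 2.

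Of the 3 T-type pore genes, Cacna1h was higher in dentate gyrus, with 58.7 ± 4.70 CPM there (SD, n = 3) and 25.4 ± 0.935 CPM in cortex (SD, n = 2). Cacna1g was at 4.27 ± 1.08 CPM in dentate gyrus (SD, n = 3) and 20.5 ± 1.06 CPM in cortex (SD, n = 2), a log2 fold change of -2.27 (SE 0.42). Cacna1i was at 13.9, 4.27 and 9.98 CPM in dentate gyrus replicates 1, 2 and 3, and at 35.2 and 53.5 CPM in cortex replicates 1 and 2. The Cacna1i adjusted p was 0.00634 by edgeR, and 0.0571 without cortex replicate 2.

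Of the 8 γ subunit genes, most of which encode AMPA receptor partners (TARPs), 6 were tested, and by edgeR 3 were lower in dentate gyrus and 0 were higher there. At an unadjusted p under 0.05 by edgeR, and also by DESeq2, 4 were lower and 1 was higher. Cacng7, with a log2 fold change of -1.34 (SE 0.20), Cacng3 at -0.97 (SE 0.17) and Cacng2, stargazin, at -1.11 (SE 0.21) were called. The Cacng2 adjusted p was 0.00478, and 0.0551 without cortex replicate 1. Cacng5 was at 7.71, 5.74 and 9.00 CPM in dentate gyrus replicates 1, 2 and 3, and at 2.39 and 1.80 CPM in cortex replicates 1 and 2. Its adjusted p was 0.0609 by edgeR.

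**Figure D5:**
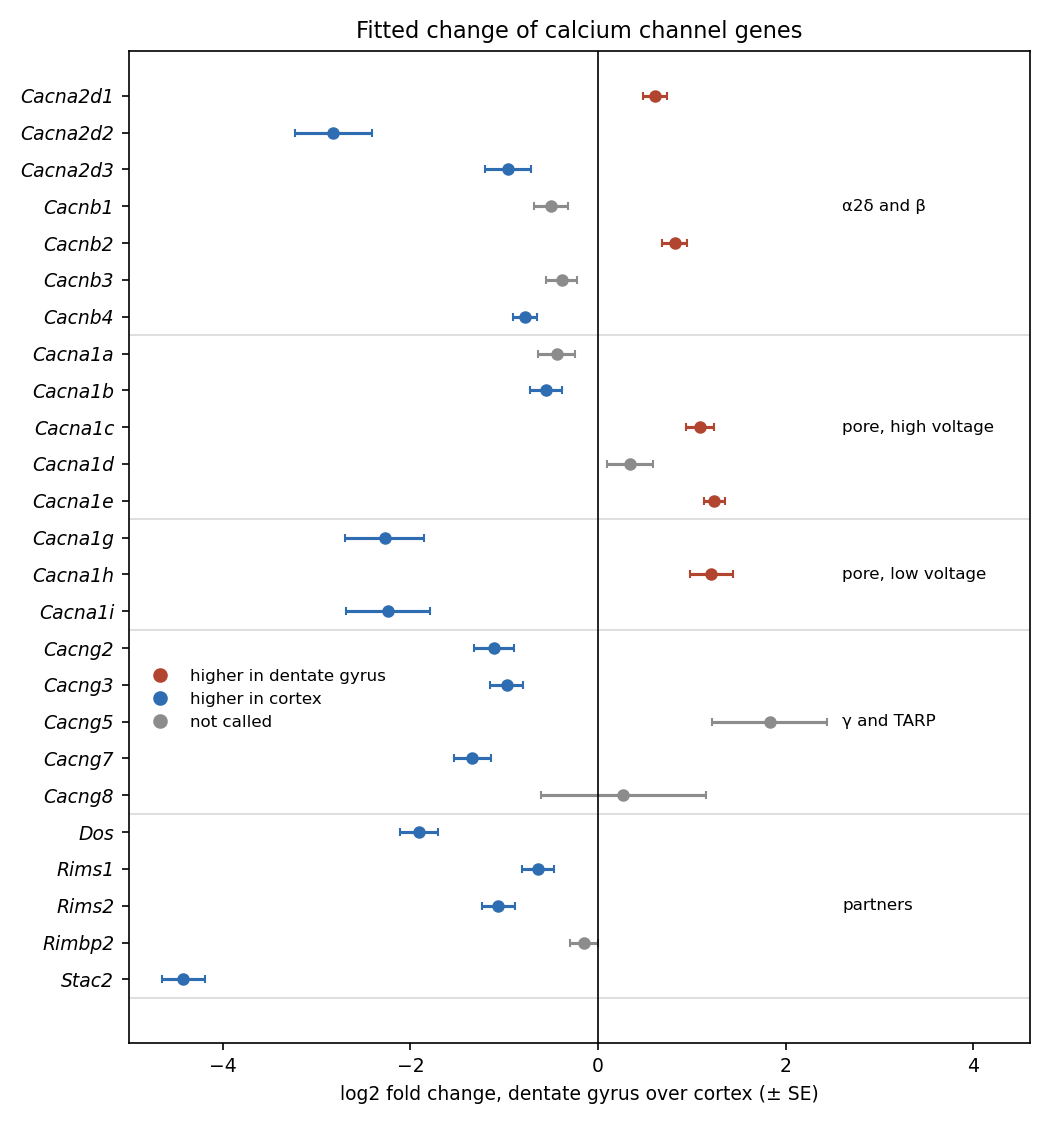
Fitted log2 fold change, dentate gyrus over cortex, with its SE, for the 7 subunit genes and for tested pore, γ and partner genes whose SE was under 1. Red points are called higher in dentate gyrus, blue points higher in cortex and grey points not called; the subunit genes run from -2.82 for Cacna2d2 to 0.81 for Cacnb2.

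Other partners of calcium channels, not all of which bind these subunits, were mostly lower in dentate gyrus. Of all tested genes, 10.8% were called lower there. Of 9 genes, 8 were tested, 6 were lower there and 0 were higher, with 0 higher also at an unadjusted p under 0.05, by DESeq2 and by limma voom. The count of lower genes was 6 by DESeq2, 5 by limma voom and 3 by edgeR without cortex replicate 2. Stac2, an adaptor protein of L-type channels, was at 14.2, 18.6 and 10.8 CPM in dentate gyrus replicates 1, 2 and 3, and at 304 and 314 CPM in cortex replicates 1 and 2 (log2 -4.42, SE 0.23). Cbarp, listed under its older symbol Dos, encodes a protein that binds β subunits and lowers channel activity. It was at 51.3 ± 10.5 CPM in dentate gyrus (SD, n = 3) and 191 ± 6.43 CPM in cortex (SD, n = 2), a log2 fold change of -1.91 (SE 0.20, adjusted p 0.000145 by edgeR). Rims2, an active zone protein that binds β subunits, had a log2 fold change of -1.06 (SE 0.18). Rims3, of the same family, had 1, 2 and 0 counts in dentate gyrus replicates 1, 2 and 3, and its level was 3.13 and 3.27 CPM in the cortex libraries. The Rims3 adjusted p was 0.0113, and 0.0729 and 0.0735 without cortex replicates 1 and 2.

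The remaining α2δ gene, Cacna2d4, known from retinal photoreceptors, was low and uneven, with 0, 0.356 and 4.52 CPM in dentate gyrus replicates 1, 2 and 3, and 0.626 and 2.61 CPM in cortex replicates 1 and 2. Cachd1, an α2δ-like gene that acts on T-type channels, was at 6.004, 7.66 and 18.4 CPM in the dentate gyrus libraries and at 3.84 and 3.88 CPM in the cortex libraries. Its adjusted p was 0.124 by edgeR. The 4 RGK GTPase genes, whose products bind β subunits and shut channels down, reached at most 1.49 CPM in any library. The 4 thrombospondin genes, whose products are extracellular ligands of the subunit encoded by Cacna2d1, reached at most 1.79 CPM. With 1 and 2 members of these lists tested, 0 were called by edgeR, by DESeq2 or by limma voom, and 0 had an unadjusted p under 0.05 by edgeR.

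Genes with the most similar profile over the 5 libraries were found by the root mean square difference of log2 CPM, each gene centred on its mean, among 7902 genes. For Cacna2d2 they were Jade2, Midn and Sbk1, at 0.208, 0.229 and 0.236 log2 units. Midn was at 9.03, 6.72 and 7.74 CPM in dentate gyrus replicates 1, 2 and 3, and at 78.9 and 58.6 CPM in cortex replicates 1 and 2, so it too was higher in cortex replicate 1 than in cortex replicate 2. For Cacnb2 they were Ppp1cb, Txlng and Suz12, at 0.0297, 0.0341 and 0.0402 log2 units. Cacnb3 and Cacnb1 were about equally even over libraries, with an SD of log2 CPM of 0.255 and 0.256 and a range of 0.762 and 0.645 log2 units. For Cacnb3, taken for its SD, the closest genes were Spire1, Fnbp1 and Pcmt1, at 0.0250, 0.0384 and 0.0439 log2 units. The measure rests on 5 libraries of 2 tissues.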

How the data were processed

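Per the file headers and values, the authors deposited a table of raw counts by gene symbol for each library, made with STAR 2.0.0e and HTSeq on mm10 per the submitters' processing notes. The sources used here give no annotation, HTSeq version or strand setting. Reads matching several places sit in a separate summary class. The 6 rows naming no gene did not enter the analysis; reads without a feature were 10.59% to 14.83% of a library and non-unique reads 25.03% to 31.76%.

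Library sizes were adjusted by the trimmed mean of M values (TMM), and counts were filtered with filterByExpr and tested by edgeR 4.0.16 (R 4.3.3) with a quasi-likelihood F test on tissue, dentate gyrus minus cortex, with Benjamini-Hochberg adjustment over 14136 genes and calls at 0.05. Unless a sentence names another tool, adjusted p-values are from edgeR. Levels per length divide TMM-scaled CPM by the union of exons in GENCODE M21 (GRCm38, the same build as mm10), in kb. Cbarp was matched to the listed symbol Dos through the RefSeq table. The procedure was tested on simulated counts. The members and lists were chosen with earlier results of these data known. Named genes were all members, up to 4 called genes of each channel list by adjusted p, any gene needed beside a member's result, and the 3 genes with the smallest root mean square difference in centred log2 CPM (prior count 2, mean of at least 10 CPM) to the called member with the largest change in each direction and to the member with the smallest SD. Cacna1a, Cacng5, Cacna2d4 and Cachd1, which were not called, were named after their values were seen. The alternatives were other scalings and filters, a replicate block, robust dispersion, DESeq2 1.42.0, limma voom (limma 3.58.1), a test against 2-fold, left-out libraries, removal of Rn45s and another gene length. Figures used matplotlib 3.10.9.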

Additional observations from a re-analysis of the deposited data

How the results depend on the processing

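All 16 alternatives kept the direction of all 7 members. A test against 2-fold gave 360 genes higher and 482 lower in dentate gyrus, and 0 and 1 members. Leaving out cortex replicate 1 and dentate gyrus replicate 2 together gave 771 and 807 genes, and 0 and 1 members (Cacnb4), with an adjusted p of 0.0861 for Cacna2d1 and 0.0505 for Cacnb2; only 3 libraries then remain. With 1 library left out, the counts were 908 to 1295 genes higher and 913 to 1459 lower in dentate gyrus, and 1 to 2 and 2 to 3 members. With 1 cortex library, its spread is assumed to be that of the other group. DESeq2 called 4 members lower, Cacnb1 added. The replicate numbers are not stated to pair libraries; the deviations of same-numbered libraries correlated at -0.004 and -0.0163. A replicate block gave 2237 calls in all, and 2 members higher and 2 lower, Cacna2d3 no longer passing. Over the members, 98 of the single-gene values kept their side of the threshold, 13 lost the call and 1 gained it. Another gene length moved 21 of the per-length values by more than 1 SD. The lowest member, Cacna2d2, had 76 to 171 counts in the dentate gyrus libraries, so that counting error is largest for it.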
